A study of Mus musculus with 18 samples.

Results

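The SR and hnRNP genes are the largest families of RNA-binding proteins that steer splice site choice. They were taken here as all genes whose symbol begins with Srsf, Sfrs or Hnrnp in the deposited tables. This gave 31 of 20325 genes, 13 with Srsf or Sfrs symbols and 18 with Hnrnp symbols. Of these, 30 passed the filter on low values in every comparison. Srsf13b, an older name of the gene now called Srsf12, had a value of at most 4.55 in any library and was not tested.

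Their mRNA levels were measured by RNA-seq in 18 libraries of C3H10T1/2, a line of multipotent mesenchymal cells from a C3H mouse embryo, and of tumors grown from it. The series was built to ask what the lysine-to-methionine change at residue 36 of histone H3 (K36M), which blocks methylation of H3K36, does to mesenchymal cells. 3 stable lines expressed a FLAG-HA-tagged histone: wild-type H3.3 (2 libraries), H3.3K36M (2) or H3.1K36M (2). Parental cells received a scramble siRNA (3 libraries) or siRNAs against the H3K36 methyltransferases Nsd1, Nsd2 and Setd2 together (3, called HMT siRNA here); Nsd2 is listed under its older name Whsc1. All cultured cells were at passage 10 to 15. The 6 tumors came from 2000000 H3.3K36M cells injected with Matrigel under the skin of both flanks of athymic female SCID mice aged 6 to 8 weeks, and were taken after 5 to 6 weeks. Each histone is represented by a single line, and which tumors shared a mouse is not stated. The labels do not say whether libraries of a group came from separate cultures, so p-values speak only of how these libraries vary, and that variation may be technical.

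SR proteins carry RNA recognition motifs and an arginine- and serine-rich domain. They bind exonic enhancers and recruit U1 and U2 snRNPs, and Srpk and Clk kinases set their phosphorylation and location. hnRNPs coat nascent transcripts, and several of them silence exons that SR proteins promote. The H3K36me3 mark is tied to this machinery through reader proteins: Morf4l1 (MRG15) is known to bring in Ptbp1, and Psip1 (Ledgf) to bind Srsf1. Zmynd11 reads the mark on H3.3 and affects intron retention, and human hnRNP L binds SETD2. The values below are totals per gene. They show how much mRNA of each splicing factor was present and do not measure splicing itself.

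Many of these genes also make transcripts that are degraded, a known route by which SR proteins limit their own level. In GENCODE M21, 18 of 30 of the genes (60%) have an annotated nonsense-mediated decay transcript, against 21.8% of 18213 protein-coding symbols in the tables. The share was 10 of 12 for the Srsf and Sfrs genes (83.3%) and 8 of 18 for the Hnrnp genes (44.4%). A retained-intron transcript is annotated for 20 of 30 (66.7%), against 45.1%. These 30 include Srsf13b, which was not tested, and leave out the row listed as Srsf12, whose symbol fits 2 genes. The 18213 symbols were not filtered on value. A gene total sums productive and such unproductive transcripts.

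Promoters are shown for 4 genes on which the results turn: Hnrnpa1, which rose most with H3.3K36M, Hnrnpa3 and Srsf2, which rose with the mutant and with the knockdown, and Srsf5, which fell in both. Each window is the 150 bases before the RefSeq start in build GRCm38.p6, written 5′ to 3′ on the gene's strand, with motif matches in capitals. The motifs, searched on both strands, were the GC box GGGCGG, the CCAAT box, the E-box CACGTG, the ETS site CCGGAAG, and by name the palindromic NRF1 site and the CGCG element.
Hnrnpa1 promoter, chr15:103240247-103240396, + strand: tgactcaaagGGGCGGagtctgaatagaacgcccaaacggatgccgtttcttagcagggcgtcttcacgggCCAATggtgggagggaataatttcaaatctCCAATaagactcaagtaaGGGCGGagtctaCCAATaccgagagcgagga
Hnrnpa3 promoter, chr2:75659109-75659258, + strand: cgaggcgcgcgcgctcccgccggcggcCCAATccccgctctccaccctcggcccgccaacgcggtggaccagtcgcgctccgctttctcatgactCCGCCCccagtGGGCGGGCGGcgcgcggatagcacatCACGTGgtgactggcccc
Srsf2 promoter, chr11:116853095-116853244, - strand: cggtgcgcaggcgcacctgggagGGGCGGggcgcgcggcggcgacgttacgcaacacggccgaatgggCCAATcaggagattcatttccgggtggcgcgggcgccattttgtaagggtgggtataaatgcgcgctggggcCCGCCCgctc
Srsf5 promoter, chr12:80945349-80945498, + strand: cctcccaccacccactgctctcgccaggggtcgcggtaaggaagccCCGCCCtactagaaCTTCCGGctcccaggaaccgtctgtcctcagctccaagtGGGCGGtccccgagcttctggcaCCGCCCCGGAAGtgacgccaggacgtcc
The Hnrnpa1 window held 3 CCAAT boxes and 2 GC boxes. The Hnrnpa3 window held 3 GC boxes, 2 of which overlap each other, with 1 CCAAT box and 1 E-box. The Srsf2 window held 2 GC boxes and 1 CCAAT box. Srsf5 had 3 GC boxes and 2 ETS sites, with 1 GC box and 1 ETS site overlapping, and no CCAAT box. Windows of 250 bases were at hand for 28 of the 31 genes. The GC box was in 80% of their 40 windows against 32.7% of all 32851 RefSeq windows, the CCAAT box in 50% against 33.8%, and the ETS site in 22.5% against 6.9%. The E-box was in 7.5% against 6.0%, the NRF1 site in 2.5% against 0.8% and the CGCG element in 0.0% against 0.4%. These matches describe the letters only. Genes with several starts count more than once, and some of their windows overlap, as in Srsf4 and Hnrnph1. The 32851 RefSeq windows were not filtered on value.

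All 8 mesenchymal markers listed were detected in each cultured group. The libraries held 13993307 to 56041798 estimated reads. Values are the authors' estimated counts divided by a factor per library, and they are not scaled to gene length, so they are compared between libraries and not between genes. The SR and hnRNP genes made up 0.886 to 0.895% of estimated reads in wild-type cells, 1.04% in both H3.3K36M libraries, 0.828 to 0.835% in control siRNA cells and 0.931 to 0.959% in HMT siRNA cells. They made up 0.961 to 0.965% in H3.1K36M cells and 0.541 to 0.776% in tumors. The median of their mean values was 6157 against 688 for all genes tested in the siRNA table. The siRNAs lowered their targets: Setd2 was -1.52 ± 0.047 (log2 fold change ± SE), Whsc1 -0.59 ± 0.041 and Nsd1 -0.52 ± 0.044, with no overlap between the groups. In H3.3K36M against wild-type cells, Whsc1 was higher (1.07 ± 0.050) and Setd2 lower (-0.22 ± 0.058). Nsd1 (0.11 ± 0.054) did not reach an adjusted p under 0.05 there (limma).

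The first comparison asked which splicing factors the mutant H3.3 line expresses at another level than the wild-type line. Of the 30 genes tested, 16 were higher in the mutant and 5 lower at an adjusted p under 0.05 (limma, Benjamini-Hochberg over 13186 genes), where 37.5% and 33.3% of all genes were called. The hnRNP A/B family rose most, the classical SR proteins were split, and the F/H family moved in both directions. The median log2 fold change of the 30 genes was 0.12, against 0.02 for all genes tested. Cell cycle genes moved too: 19 of 20 listed ones were higher and 1 lower, and their summed value was 112285 to 113298 in H3.3K36M cells against 76660 to 81097 in wild-type cells. Their part in the result was not tested.

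**Figure D1:**
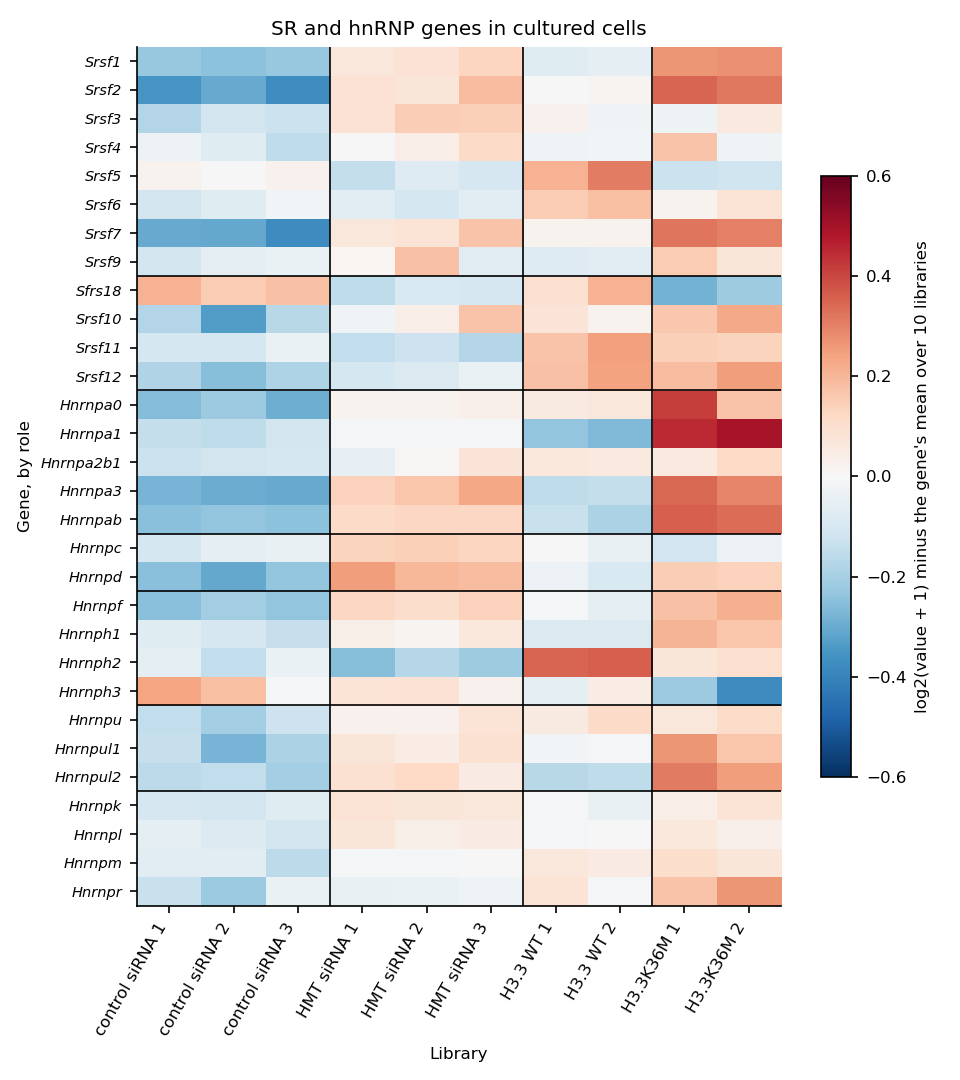
Heat map of the 30 genes tested (rows, ordered by role) in the 10 cultured libraries of the siRNA table (columns), coloured by log2(value + 1) minus the gene's mean over the 10 libraries. Most rows are blue in the 3 control siRNA libraries and red in the 2 H3.3K36M libraries, while Srsf5, Hnrnph2 and Sfrs18 are lower in H3.3K36M than in wild-type cells.

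Within the A/B family, whose members bind exons and introns and often block splicing, 4 of 5 rose and none fell. Hnrnpa1, the classical antagonist of Srsf1, stood at 15282 and 15006 in wild-type and 24534 and 25358 in H3.3K36M cells. The groups were far apart (0.72 ± 0.035, adjusted p = 1.56e-12). Hnrnpa1 has processed pseudogenes, and reads they share with it were divided by estimation, so its level carries that uncertainty, as do those of Hnrnpa3 and Srsf3. Hnrnpab, a paralog that also binds DNA, was at 6959 and 6692 against 9784 and 9619, also without overlap (0.51 ± 0.036, adjusted p = 4.61e-10). Hnrnpa3 was at 22635 and 22788 against 31903 and 30786 (0.46 ± 0.038, adjusted p = 3.05e-09). Hnrnpa0, which binds AU-rich mRNAs, rose (0.23 ± 0.055, adjusted p = 0.00106). Its H3.3K36M libraries, at 9218 and 7789.9, were far apart, and its fold change was 0.11, adjusted p = 0.046 without H3.3K36M library 1 and 0.35, adjusted p = 4.11e-06 without library 2. Hnrnpa2b1, a reader of methylated adenosine in RNA, had 23627 and 23522 against 23553 and 24572. Its groups overlapped, and the difference did not pass the test (0.029 ± 0.040, adjusted p = 0.534).

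Of the 8 classical SR proteins, 4 rose and 2 fell. Srsf1, the founding member of the family, was at 6499 and 6587 in wild-type and 8206 and 8261 in H3.3K36M cells. Srsf2 (SC35), which marks nuclear speckles, was at 5568 and 5629 against 7077 and 6918. Neither gene's groups overlapped, and both rose (Srsf1 0.33 ± 0.037, adjusted p = 2.12e-07; Srsf2 0.32 ± 0.043, adjusted p = 2.5e-06). Srsf7, which also serves in mRNA export, rose (0.29 ± 0.045, adjusted p = 1.4e-05), as did Srsf9 (0.18 ± 0.065, adjusted p = 0.0182). Srsf5, an activator of exon inclusion, went the other way, from 7360.3 and 7880.0 in wild-type to 5811 and 5863 in H3.3K36M cells. Both mutant libraries lay below both wild-type libraries (-0.38 ± 0.041, adjusted p = 1.2e-07). Srsf6, its close relative, fell slightly (-0.11 ± 0.041, adjusted p = 0.0187), a call lost with equal totals (-0.085, adjusted p = 0.0775). Srsf3, the smallest SR protein, had 7049.6 and 6838 against 6798 and 7219, with overlapping groups (0.013 ± 0.042, adjusted p = 0.796). Srsf4 did not pass the test either (0.091 ± 0.064, adjusted p = 0.211).

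Among the other SR-like genes, Sfrs18, now called Pnisr, fell from 3084 and 3338 to 2368 and 2491. The groups did not overlap (-0.40 ± 0.047, adjusted p = 4.43e-07). Srsf10, which represses splicing when dephosphorylated, was higher (0.15 ± 0.063, adjusted p = 0.0457). Srsf11 (-0.070 ± 0.043, adjusted p = 0.15) and the row listed as Srsf12 (0.0089 ± 0.047, adjusted p = 0.876) did not pass. That row's symbol fits the present Srsf12 and an older name of Srek1, so no role is given to it.

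The F/H family binds runs of G. Hnrnph2 was at 3761 and 3791 in wild-type and 3104 and 3159.8 in H3.3K36M cells, and Hnrnph3 at 862 and 923 against 771 and 689. Both fell without overlap (-0.27 ± 0.046, adjusted p = 3.65e-05, and -0.29 ± 0.075, adjusted p = 0.00218), while their paralogs Hnrnph1 (0.28 ± 0.037, adjusted p = 2.9e-06) and Hnrnpf (0.23 ± 0.037, adjusted p = 2.69e-05) rose. In the U family, Hnrnpul2, which acts in DNA end resection, rose from 6715 and 6774 to 9325 and 8956. Its groups were well apart (0.44 ± 0.040, adjusted p = 1.28e-08), and Hnrnpul1 also rose (0.23 ± 0.047, adjusted p = 0.000268). Hnrnpu, a nuclear scaffold protein, had 15725 and 16374 against 15854 and 16306. Its groups overlapped and its fold change of 0.0029 ± 0.040 did not pass (adjusted p = 0.953); after quantile normalisation it passed as lower (log2 fold change -0.13, adjusted p = 0.0131).

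The remaining hnRNPs moved little. Hnrnpk, a binder of C-rich RNA, was at 15712 and 15338 against 16258 and 16755 (0.088 ± 0.035, adjusted p = 0.0333). Hnrnpl, which binds CA repeats, was at 5893 and 5919 against 6188 and 6049 and did not pass (0.051 ± 0.038, adjusted p = 0.234). Both sets of libraries were separate by small margins, and after quantile normalisation the sign of Hnrnpk turned (log2 fold change -0.042, adjusted p = 0.304). Hnrnpr rose (0.18 ± 0.054, adjusted p = 0.00582), as did Hnrnpd, which targets AU-rich mRNAs for decay (0.21 ± 0.043, adjusted p = 0.000304). Hnrnpm (0.031 ± 0.039, adjusted p = 0.496) and Hnrnpc, a binder of U tracts (-0.053 ± 0.040, adjusted p = 0.245), did not pass.

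Of these calls 6 were lost when 1 library was left out. Such a fit leaves a group of 2 with 1 library, which is assumed to vary like the other groups, here and wherever a library of the 3 stable lines is left out below. In parentheses are the log2 fold change and adjusted p of that fit. The call of Hnrnpk was lost without wild-type library 1 (0.11, adjusted p = 0.0519), wild-type library 2 (0.071, adjusted p = 0.184) or H3.3K36M library 2 (0.067, adjusted p = 0.182), and that of Srsf9 without wild-type library 1 (0.17, adjusted p = 0.0785), wild-type library 2 (0.19, adjusted p = 0.0613) or H3.3K36M library 1 (0.14, adjusted p = 0.139). Hnrnpr lost its call without wild-type library 2 (0.14, adjusted p = 0.0918) or H3.3K36M library 2 (0.14, adjusted p = 0.0794), Srsf6 without wild-type library 2 (-0.10, adjusted p = 0.107) or H3.3K36M library 1 (-0.084, adjusted p = 0.151) and Hnrnph3 without H3.3K36M library 2 (-0.21, adjusted p = 0.0504). Srsf10 lost it without wild-type library 1 (0.17, adjusted p = 0.0726), wild-type library 2 (0.12, adjusted p = 0.219), H3.3K36M library 1 (0.18, adjusted p = 0.0587) or H3.3K36M library 2 (0.11, adjusted p = 0.218).

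In the second comparison, HMT siRNA was set against control siRNA cells to ask what lowered mRNA of the enzymes does in place of the mutant histone. Here 22 of the 30 genes were higher and 3 lower, where 31.9% and 31.7% of 13186 genes were called (limma, Benjamini-Hochberg). All 5 A/B genes rose, as did both C and D genes and all 3 of the U family. The changes were small, with a median log2 fold change of 0.16 against 0.0021 for all genes, and a largest one of 0.48. The cell cycle list was higher in 20 of 20 genes, and its summed value was 74590 to 79602 in HMT siRNA against 30226 to 33601 in control siRNA cells. Its part in the result was not tested.

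Hnrnpd was at 2732, 2625 and 2752 in control siRNA and 3865, 3722 and 3695 in HMT siRNA cells. Hnrnpa3 was at 20756, 20488 and 20371 against 27676, 28268 and 29582. These 2 genes moved most, with all knockdown libraries above all controls (Hnrnpd 0.48 ± 0.035, adjusted p = 8.13e-10; Hnrnpa3 0.47 ± 0.031, adjusted p = 1.77e-10). Srsf2 had 4354, 4515 and 4300.2 against 5903, 5853 and 6329, and Srsf7 had 2319, 2312 and 2200.1 against 2998, 3019.9 and 3213. They were the SR genes that rose most, again without overlap (Srsf2 0.46 ± 0.035, adjusted p = 1.85e-09; Srsf7 0.43 ± 0.037, adjusted p = 7.48e-09).

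Srsf1 rose from 5831, 5761 and 5840.1 to 7165, 7240.1 and 7460.1 (0.33 ± 0.030, adjusted p = 2.15e-08), and Srsf3 from 6146, 6425 and 6349 to 7363, 7669.7 and 7653 (0.26 ± 0.034, adjusted p = 2.07e-06). In both genes the lowest knockdown library exceeded the highest control. Srsf10 (0.29 ± 0.051, adjusted p = 7.43e-05), the row listed as Srsf12 (0.13 ± 0.039, adjusted p = 0.00734) and Srsf4 (0.14 ± 0.052, adjusted p = 0.0244) rose as well. Srsf5 stood at 6465, 6361 and 6471 in control and 5758, 6034 and 5942 in HMT siRNA cells, and Sfrs18 at 3335, 3205 and 3259.7 against 2599, 2709 and 2688. Both fell, with no overlap (Srsf5 -0.12 ± 0.033, adjusted p = 0.00373; Sfrs18 -0.29 ± 0.038, adjusted p = 2.33e-06). Srsf6, Srsf9 and Srsf11 did not pass (log2 fold changes -0.011, 0.11 and -0.065).

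Hnrnpa1 was at 16314, 16213 and 16700.2 against 17842, 17866 and 17868, a separated but small rise (0.12 ± 0.029, adjusted p = 0.00118). Hnrnpa2b1 was at 20677, 20907 and 20989 against 21862, 22709 and 23827, and rose, also without overlap (0.13 ± 0.033, adjusted p = 0.00252). Hnrnpab (0.37 ± 0.030, adjusted p = 3.84e-09) and Hnrnpa0 (0.28 ± 0.045, adjusted p = 2.58e-05) rose as well. In the F/H family Hnrnpf (0.35 ± 0.030, adjusted p = 7.37e-09) and Hnrnph1 (0.14 ± 0.031, adjusted p = 0.000531) rose. Hnrnph2 fell, from 2842, 2669 and 2876 to 2476, 2619 and 2549.6, with every knockdown library below the controls (-0.13 ± 0.037, adjusted p = 0.00434), and Hnrnph3 did not pass (-0.070 ± 0.062, adjusted p = 0.333).

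Hnrnpu, at 13662, 13119.7 and 13865 in control and 15412, 15384 and 15991 in HMT siRNA cells, rose (0.20 ± 0.032, adjusted p = 2.41e-05). Its relatives Hnrnpul1 and Hnrnpul2 rose too (log2 fold changes 0.27 and 0.26), and so did Hnrnpc (0.20). Hnrnpk had 14779, 14645 and 15032 against 16733, 16664 and 16580.1, and Hnrnpl had 5699, 5590.3 and 5477 against 6214, 6053 and 6115. Neither gene's groups overlapped, and both rose (Hnrnpk 0.17 ± 0.029, adjusted p = 5.35e-05; Hnrnpl 0.13 ± 0.031, adjusted p = 0.00097). After quantile normalisation neither Hnrnpl (0.064, adjusted p = 0.0791) nor Hnrnpm (0.025, adjusted p = 0.523) passed, and with equal totals Hnrnpm (0.060, adjusted p = 0.103) and Srsf4 (0.11, adjusted p = 0.0621) did not. Hnrnpm had the smallest called rise (0.088 ± 0.032, adjusted p = 0.0242) and Hnrnpr did not pass (0.10 ± 0.044, adjusted p = 0.0688). The call of Hnrnpm was lost without HMT siRNA library 1 (0.090, adjusted p = 0.0591), HMT siRNA library 2 (0.089, adjusted p = 0.0553), HMT siRNA library 3 (0.084, adjusted p = 0.0684) or control siRNA library 3 (0.056, adjusted p = 0.135), and that of Srsf4 without HMT siRNA library 3 (0.11, adjusted p = 0.117) or control siRNA library 3 (0.11, adjusted p = 0.0992).

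The mutant and knockdown responses share no library. Of the 16 genes that rose with H3.3K36M, 14 (87.5%) also rose with HMT siRNA, which is 63.6% of the 22 that rose there. Of all genes tested 20.6% rose in both. That is 54.8% of those that rose with the mutant and 64.5% of those that rose with the knockdown. The second share is close to that of the SR and hnRNP genes. The first share depends on how many genes rose with the knockdown at all, 73.3% of the 30 and 31.9% of all genes. Agreement beyond these shares was not tested. The 14 were Srsf1, Srsf2, Srsf7, Srsf10, Hnrnpa0, Hnrnpa1, Hnrnpa3, Hnrnpab, Hnrnpd, Hnrnpf, Hnrnph1, Hnrnpk, Hnrnpul1 and Hnrnpul2. Srsf5, Sfrs18 and Hnrnph2 fell in both, 3 of the 5 genes that fell with the mutant (60%) and all 3 that fell with the knockdown. Of all genes tested 20% fell in both, which is 60% of those that fell with the mutant and 63.2% of those that fell with the knockdown.

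**Figure D2:**
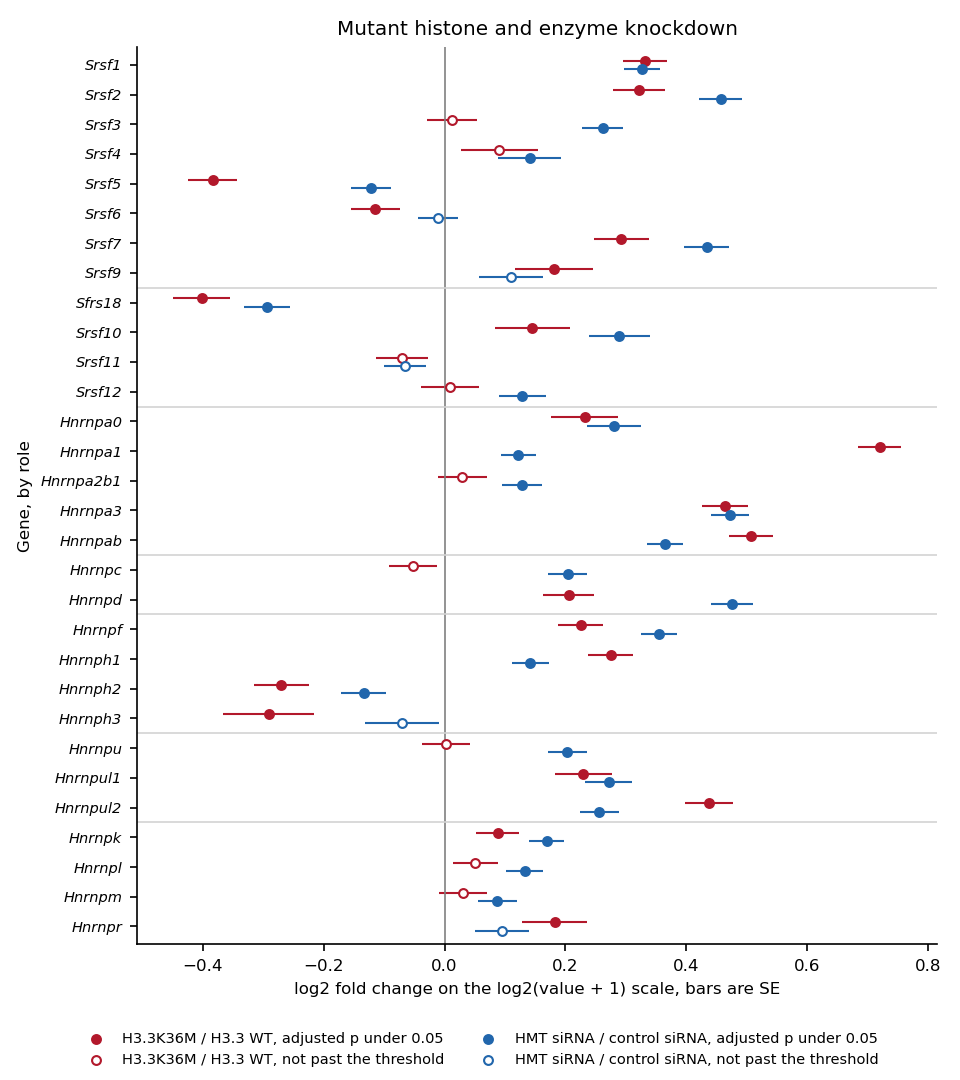
Log2 fold change of each of the 30 genes (rows, by role) in H3.3K36M against wild-type cells (red) and in HMT against control siRNA cells (blue); bars are SE and open points did not pass the test. Srsf1 and Hnrnpa3 have nearly the same fold change in both comparisons, while Hnrnpa1 reaches 0.72 with the mutant and 0.12 with the knockdown.

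Whether the responses differ in size was tested as an interaction in the same fit. The mutant response exceeded the knockdown response in 4 of the 30 genes and lay below it in 8, where 27.5% and 27.4% of all genes were called (limma, Benjamini-Hochberg); with libraries scaled to equal totals the split was 4 and 5. Hnrnpa1 differed most (0.72 against 0.12, difference 0.60 ± 0.046, adjusted p = 2.71e-09). Hnrnpul2 (0.18 ± 0.051, adjusted p = 0.00565), Hnrnpab (0.14 ± 0.047, adjusted p = 0.0158) and Hnrnph1 (0.13 ± 0.048, adjusted p = 0.0259) also responded more to the mutant. Hnrnph1 was at 8498 and 8502 in wild-type, 10416 and 10159 in H3.3K36M, 8581, 8438 and 8220.1 in control siRNA and 9267, 9135 and 9441 in HMT siRNA cells, and Hnrnpc at 7075 and 6855, 6529 and 6906, 6581, 6787 and 6854 and 7748, 7816 and 7722 in that order. Hnrnph1 was separate in both pairs of groups, and Hnrnpc overlapped in the first and was separate in the second. Srsf3, Hnrnpc and Hnrnpu, whose knockdown response passed and whose mutant response did not, differed by -0.25 ± 0.054, -0.26 ± 0.051 and -0.20 ± 0.051 (adjusted p = 0.000711, 0.000352 and 0.00286). Hnrnpd rose more with the knockdown (-0.27 ± 0.055, adjusted p = 0.0004), and Srsf5 fell more with the mutant (-0.26 ± 0.053, adjusted p = 0.000375). Hnrnpf, Srsf2 and Srsf7 rose more with the knockdown by small amounts (adjusted p = 0.0288, 0.0482 and 0.0484).

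For Srsf1 the difference was 0.0048 ± 0.047 and for Hnrnpa3 -0.0079 ± 0.049; neither passed. Hnrnpa2b1 (-0.10 ± 0.052), Hnrnpk (-0.081 ± 0.046) and Hnrnpl (-0.082 ± 0.048) did not pass either. After quantile normalisation Hnrnpa2b1 (-0.23, adjusted p = 0.00282) and Hnrnpk (-0.23, adjusted p = 0.000311) passed. Equal totals ended the calls of Hnrnpf, Srsf2 and Srsf7 (adjusted p = 0.205, 0.246 and 0.228), and quantile normalisation those of Srsf2 and Srsf7 (0.168 and 0.107). Leaving out wild-type library 2 or H3.3K36M library 1 reduced the 4 to 2, and leaving out wild-type library 1 or HMT siRNA library 3 reduced the 8 to 5. Hnrnpab lost its call without wild-type library 2 (0.11, adjusted p = 0.0956) or H3.3K36M library 1 (0.13, adjusted p = 0.0563). The calls of Hnrnpf, Hnrnph1, Srsf2 and Srsf7 were lost in 5, 6, 8 and 7 of the 10 fits that left out 1 library (adjusted p up to 0.141, 0.0946, 0.14 and 0.128).

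The references of the responses stood at different levels. Both wild-type libraries lay above all 3 control siRNA libraries for 24 of the 30 genes, where this held for 36.4% of all genes. Srsf2 had a mean of 5598 in the wild-type line against 4389.5 in scramble-treated cells, and Hnrnph2 one of 3776 against 2796. Hnrnpa1 was an exception, at 15144 against 16409. The cell cycle list summed to 76660 to 81097 in wild-type and 30226 to 33601 in control siRNA cells. In HMT siRNA cells it summed to 74590 to 79602. The part of the cell cycle in these levels was not tested. The wild-type line carries a tagged histone and the siRNA cells do not, so the lines and treatments cannot be told apart here. Low values of the H3.3 libraries also had a different texture. Of values from 1 to 20 estimated reads, 76.2 to 78.6% were whole there, against 83.9 to 86.4% in the other libraries. The H3.1K36M and tumor comparisons below set H3.3 libraries against such others, so they carry this difference too. Its part in the levels and in those comparisons was not tested.

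Genes that act with the SR and hnRNP proteins were read from lists. Of all genes tested, 37.5% were called higher and 33.3% lower with the mutant, and 31.9% and 31.7% with the knockdown. Of 44 snRNP and core spliceosome genes, 26 were higher (59.1%) and 5 lower (11.4%) in H3.3K36M cells. In HMT siRNA cells 34 were higher (77.3%) and 2 lower (4.5%). Lsm2, a ring protein of the U6 snRNP, rose in both (0.65 ± 0.063, adjusted p = 3.2e-08 with the mutant, 0.68 ± 0.052, adjusted p = 1.47e-09 with the knockdown), and Snrpd2, an Sm core protein, rose with the mutant (0.62 ± 0.063). Sf3b1 and Snrpb2, both of the U2 snRNP, fell with the mutant (-0.35 ± 0.038 and -0.39 ± 0.049). Of 37 other splicing regulators, 15 were higher (40.5%) and 13 lower (35.1%) with the mutant, close to the shares of all genes. With the knockdown 18 were higher (48.6%) and 5 lower (13.5%). Celf2, a muscle and brain splicing factor, fell steeply with the mutant (-2.76 ± 0.052) and Mbnl3 rose (1.71 ± 0.11). With the knockdown Mbnl3 (0.90 ± 0.090) and Taf15 (0.66 ± 0.036) rose most, and Tia1 fell (-0.41 ± 0.039).

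Among the 10 kinases and import factors of SR proteins, 3 were higher (30%) and 4 lower (40%) with the mutant. With the knockdown 2 were higher (20%) and 3 lower (30%). Over all genes tested the shares were 37.5% and 33.3% with the mutant, and 31.9% and 31.7% with the knockdown. Srpk1, which phosphorylates SR proteins for nuclear import, rose in both (0.65 ± 0.054, adjusted p = 3.84e-09 and 0.39 ± 0.044, adjusted p = 3.19e-07), and Clk1, which releases them from speckles, fell in both (-0.39 ± 0.049, adjusted p = 9.98e-07 and -0.26 ± 0.040, adjusted p = 1.43e-05). The H3K36 reader list held 4 genes. Ptbp1 and Psip1 rose in both (0.59 ± 0.040 and 0.59 ± 0.051 with the mutant, 0.56 ± 0.033 and 0.66 ± 0.042 with the knockdown), and Zmynd11 fell in both (-0.24 ± 0.042 and -0.23 ± 0.034). Morf4l1 fell with the mutant (-0.41 ± 0.038) and did not pass with the knockdown (0.050 ± 0.031). Exon junction and decay genes were 5 higher (33.3%) and 4 lower (26.7%) of 15 with the mutant, near the shares of all genes. With the knockdown 9 were higher (60%) and 2 lower (13.3%). Upf1, the decay helicase, fell in both (-0.74 ± 0.046 and -0.25 ± 0.038) and Magohb rose in both (1.28 ± 0.14 and 0.54 ± 0.11).

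H3.1K36M cells carry the same substitution on the replication-coupled histone. They were compared with both H3.3 lines in the 6 cultured libraries of the xenograft table, so the comparisons share libraries and their values stand side by side. Against wild-type cells 12 of the 30 genes were higher and 8 lower, where 41.1% and 38.4% of 13404 genes were called (limma, Benjamini-Hochberg); after quantile normalisation the split was 9 and 13. In 1 fit of all 12 libraries, whose spread includes that of the tumors, it was 3 (Hnrnpa3, Hnrnpab and Srsf2) and 2 (Hnrnph3 and Srsf4), and Hnrnpa1 was at 0.50, adjusted p = 0.0767. Against H3.3K36M cells 7 were higher and 9 lower, where 35.4% and 32.8% were called; with equal totals the split was 2 and 17, after quantile normalisation 1 and 17, and in the fit of all 12 libraries 0 and 4 (Hnrnpa0, Hnrnph3, Hnrnpul2 and Srsf4). Leaving out H3.1K36M library 1 or library 2 reduced the 7 to 4. The cell cycle list was 8 higher and 7 lower of 20 against wild-type cells, and 1 and 18 against H3.3K36M cells.

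Hnrnpa1 was at 20562 and 20315 in wild-type, 29006 and 28813 in H3.1K36M and 32344 and 33472 in H3.3K36M cells. The 3 lines did not overlap, and H3.1K36M lay between the others (0.50 ± 0.029, adjusted p = 4.29e-10 against wild type; -0.19 ± 0.029, adjusted p = 4.63e-05 against H3.3K36M). Hnrnpa3, at 30456 and 30849.6, 38735 and 38038 and 42059 and 40637 in the same order, showed that order too (0.32 ± 0.029, adjusted p = 6.95e-08, and -0.11 ± 0.029, adjusted p = 0.00432). Hnrnpab, at 9364 and 9059, 12768 and 12958 and 12898 and 12697, overlapped between the mutant lines and exceeded wild type (0.48 ± 0.031, adjusted p = 1.37e-09). Hnrnpa2b1, at 31792 and 31844, 31376 and 31393 and 31051 and 32434, passed neither test (-0.020 ± 0.029 and -0.016 ± 0.029). After quantile normalisation it passed as lower in both (-0.22, adjusted p = 1.38e-05, and -0.14, adjusted p = 0.00142), and with equal totals against H3.3K36M (-0.10, adjusted p = 0.00679). Hnrnpa0, at 8477 and 8623 in H3.1K36M against 12152 and 10282 in H3.3K36M cells, was lower (-0.39 ± 0.069, adjusted p = 0.0017). It was also called lower than wild type (-0.19 ± 0.069, adjusted p = 0.0384), a call that none of the fits leaving out 1 of the 4 libraries kept (adjusted p up to 0.12).

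Srsf1 was at 8745 and 8918 in wild-type, 10943 and 10916 in H3.1K36M and 10818 and 10904 in H3.3K36M cells. Srsf2 was at 7491 and 7620.4, 9432 and 9679.7 and 9330.2 and 9132. Both were higher than in wild type (Srsf1 0.31 ± 0.030, adjusted p = 1.78e-07; Srsf2 0.34 ± 0.031, adjusted p = 1.04e-07), and neither difference between the mutant lines passed (0.0091 ± 0.030 and 0.050 ± 0.031). With equal totals the Srsf1 difference passed as lower (log2 fold change -0.077, adjusted p = 0.0323), as it did after quantile normalisation (log2 fold change -0.12, adjusted p = 0.00288). Srsf3 was at 9486 and 9257, 9830.2 and 9914 and 8962 and 9529. Its difference passed against H3.3K36M cells and not against wild type (0.10 ± 0.034, adjusted p = 0.0236; against wild type 0.075 ± 0.034, adjusted p = 0.0572), and was lost without H3.3K36M library 1 (0.051, adjusted p = 0.164), H3.1K36M library 1 (0.10, adjusted p = 0.0943) or H3.1K36M library 2 (0.089, adjusted p = 0.138).

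Hnrnph3 fell furthest in H3.1K36M cells, at 698 and 745 against 1160.4 and 1249 in wild-type and 1017 and 910.0 in H3.3K36M cells. It lay below both lines (-0.74 ± 0.064, adjusted p = 4.93e-08, and -0.41 ± 0.064, adjusted p = 4.3e-05). Srsf4, at 1441 and 1299 against 1668 and 1689.6 and 1870.1 and 1633, was likewise below both (-0.30 ± 0.062, adjusted p = 0.000562, and -0.35 ± 0.062, adjusted p = 0.000172). Hnrnpul2, at 9099 and 8983 against 9035 and 9171 and 12294 and 11822, was below the H3.3K36M line (-0.42 ± 0.031, adjusted p = 2.67e-08) and did not pass against wild type (-0.0099 ± 0.031). Srsf5 was below wild type, at 8448 and 8079 against 9904 and 10668 (-0.32 ± 0.038, adjusted p = 2.05e-06). Hnrnph2, at 4169 and 4267 against 5061 and 5132, fell against wild type as well (-0.27 ± 0.033, adjusted p = 2.54e-06), as did Sfrs18 (-0.24 ± 0.044, adjusted p = 0.000136).

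Hnrnpu was higher in H3.1K36M cells, at 24239 and 23520.1 against 21158 and 22168 in wild-type and 20901 and 21523 in H3.3K36M cells. It passed in both (0.14 ± 0.032, adjusted p = 0.00103, and 0.17 ± 0.032, adjusted p = 0.000284), but after quantile normalisation it was lower than wild type (log2 fold change -0.082, adjusted p = 0.0379) and did not pass against H3.3K36M (log2 fold change 0.044, adjusted p = 0.256). Hnrnpk, at 24545 and 24044 against 21141 and 20764 and 21433 and 22115, was above both (0.21 ± 0.030, adjusted p = 9.94e-06, and 0.16 ± 0.030, adjusted p = 0.000268). After quantile normalisation neither passed (log2 fold change -0.0009, adjusted p = 0.978, and log2 fold change 0.035, adjusted p = 0.28). Hnrnpl, at 7999 and 7538 against 7929 and 8013 and 8158 and 7985, overlapped and passed in neither comparison (-0.038 ± 0.034 and -0.056 ± 0.034). It passed as lower than H3.3K36M with equal totals (-0.14, adjusted p = 0.002) and after quantile normalisation (-0.11, adjusted p = 0.0101). Ptbp1 was above wild type (0.56 ± 0.031) and Psip1 did not pass (0.0029 ± 0.042); Zmynd11 and Morf4l1 were lower (-0.49 ± 0.033 and -0.50 ± 0.033).

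**Figure D3:**
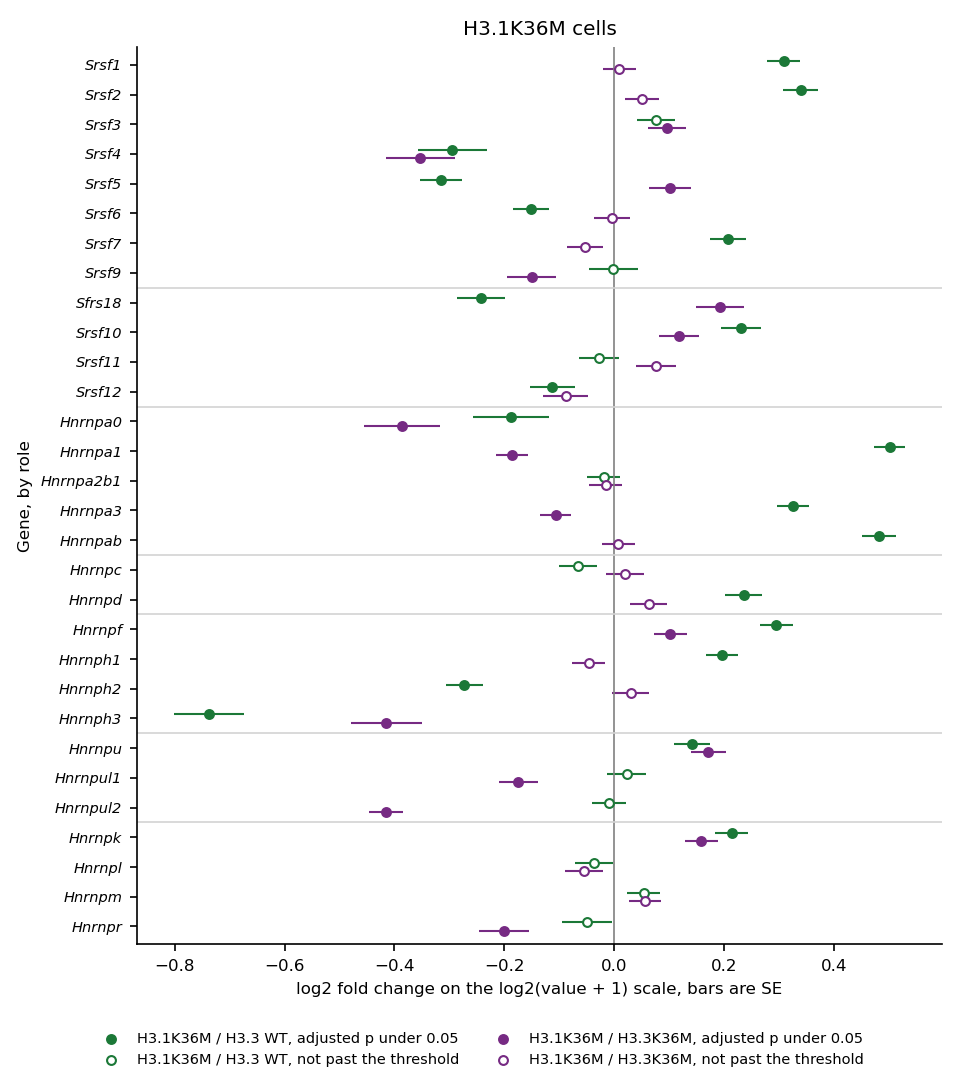
Log2 fold change of each of the 30 genes (rows, by role) in H3.1K36M cells against wild-type (green) and against H3.3K36M cells (purple); bars are SE and open points did not pass the test. Hnrnph3 and Srsf4 lie left of zero in both comparisons, and Hnrnpa1 lies at 0.50 against wild type and -0.19 against H3.3K36M.

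Among the other genes called against wild type, Hnrnpf, Hnrnpd, Srsf10, Srsf7 and Hnrnph1 were higher (log2 fold changes 0.29, 0.23, 0.23, 0.21 and 0.20). Srsf6 and the row listed as Srsf12 were lower (-0.15 and -0.11), the latter not without wild-type library 2 (-0.077, adjusted p = 0.171) or H3.1K36M library 2 (-0.079, adjusted p = 0.213). Sfrs18 was at 3725 and 3594 in H3.1K36M and 3122 and 3288 in H3.3K36M cells, and Srsf10 at 4071 and 4129 against 3694 and 3867, neither overlapping. Against H3.3K36M cells Sfrs18, Srsf10, Hnrnpf and Srsf5 were higher by 0.19, 0.12, 0.10 and 0.10, and Hnrnpr, Hnrnpul1 and Srsf9 were lower (-0.20, -0.17 and -0.15). None of these 4 higher calls passed with equal totals (adjusted p = 0.0507, 0.471, 0.66 and 0.738). The calls of Srsf10 and Srsf5 were each lost in 3 of the 4 fits that left out 1 library (adjusted p up to 0.0972 and 0.261). That of Hnrnpf was lost without H3.1K36M library 2 (0.10, adjusted p = 0.0715), that of Srsf9 without H3.3K36M library 1 (-0.11, adjusted p = 0.0638) or H3.1K36M library 1 (-0.14, adjusted p = 0.0735) and that of Hnrnpa3 without H3.1K36M library 2 (-0.094, adjusted p = 0.0633).

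The tumors were compared with the cultured H3.3K36M cells from which they grew. Of the 30 genes, 18 were lower in tumors and 4 higher, where 34.2% and 41.0% of 14842 genes were called (limma, Benjamini-Hochberg). The 4 that rose were Srsf4, Hnrnpd, Srsf9 and Hnrnph3. The median log2 fold change of the 30 was -0.65 against 0.14 for all genes; with equal totals both medians shifted down, to -0.84 and -0.06, and after quantile normalisation to -0.77 and -0.12. Relative to the median of all genes the 30 thus stood at -0.79, -0.79 and -0.65.

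Tumors hold host cells, and since host and graft are both mouse their reads are pooled. The macrophage list (10 of 11 genes in the table) summed to 214921 to 309496 in tumors against 527 to 529 in H3.3K36M cells. The endothelial list summed to 10583 to 29811 against 553 to 610.3, and the mesenchymal list to 148281 to 204272 against 588207 to 635547. The mesenchymal genes did not move as one: of 8 tested, 3 were called higher in tumors and 5 lower. In H3.3K36M cells 2 macrophage genes and 1 endothelial gene were at 0 in both libraries, and no gene of these lists was at 0 in all tumors. Of the cell cycle genes 18 of 20 were lower and none higher, with sums of 46042 to 72118 against 148030 to 149549. Fewer cells of a type and less RNA per cell cannot be told apart, and the part of these cells in the changes was not tested.

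Transcript length moved with the tumor values. Across 13428 genes with a GENCODE length the rank correlation of length and log2 fold change was -0.39; genes up to 2148 bases (the shortest 25%) had a median of 0.89 and those from 4738 bases (the longest 25%) one of -0.70. Across 28 of the SR and hnRNP genes it was -0.51. These are correlations across genes measured in the same 8 libraries. In the other comparisons the all-gene value lay between -0.07 and 0.02. Among the genes called higher in tumors, Srsf9 had a longest transcript of 1392 bases, Hnrnph3 one of 2213, Srsf4 one of 3100 and Hnrnpd one of 6811. The part of length in the tumor values was not tested.

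The F/H, U and A/B families each had 3 lower genes, and all 3 tested U genes fell. Hnrnph1 was at 13732 and 13409 in H3.3K36M cells and 3799 to 6974 (median 4396) in tumors. Hnrnpul1, which acts in the DNA damage response, was at 6633 and 6210.4 against 1393 to 3684 (median 2026). Every tumor lay below both cultures in these genes, and they fell most (Hnrnph1 -1.56 ± 0.20, adjusted p = 0.000103; Hnrnpul1 -1.65 ± 0.30, adjusted p = 0.000848). Hnrnpm, a binder of GU-rich RNA, was at 13603 and 13303 against 4504 to 8028 (median 5558), and Hnrnpr at 4462 and 4759 against 1837 to 3108 (median 2064). Again no tumor reached the cultures (Hnrnpm -1.23 ± 0.18, adjusted p = 0.000213; Hnrnpr -1.09 ± 0.18, adjusted p = 0.000463). Hnrnph2 (-1.06 ± 0.17, adjusted p = 0.00032) and Hnrnpf (-0.92 ± 0.12, adjusted p = 9.57e-05) fell with Hnrnph1, while Hnrnph3, at 1017 and 910.0 against 1063 to 1419 (median 1223), rose (0.34 ± 0.12, adjusted p = 0.0234), a call lost without H3.3K36M library 1 (0.42, adjusted p = 0.0533) or H3.3K36M library 2 (0.27, adjusted p = 0.196) and with equal totals (log2 fold change 0.15, adjusted p = 0.362).

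Hnrnpa1 was at 32344 and 33472 in H3.3K36M cells and 16259.5 to 29027 (median 18421) in tumors. Hnrnpa2b1 was at 31051 and 32434 against 15648 to 23927 (median 17126). All tumors were below the cultures, and tumor 6 was the nearest to them (Hnrnpa1 -0.74 ± 0.19, adjusted p = 0.00674; Hnrnpa2b1 -0.84 ± 0.16, adjusted p = 0.000958). Hnrnpa3 fell too (-0.71 ± 0.093, adjusted p = 0.0001), whereas Hnrnpa0 (-0.0046 ± 0.12) and Hnrnpab (-0.090 ± 0.077) did not pass. The Hnrnpa1 call was lost without H3.3K36M library 2 (-0.71, adjusted p = 0.0531). Hnrnpu, at 20901 and 21523 against 12019 to 14603 (median 13142), and Hnrnpk, at 21433 and 22115 against 12048 to 15835 (median 13143), fell without overlap (Hnrnpu -0.68 ± 0.10, adjusted p = 0.000161; Hnrnpk -0.70 ± 0.12, adjusted p = 0.000492). Hnrnpl, at 8158 and 7985 against 8408 to 9539 (median 8969), did not pass (0.15 ± 0.083, adjusted p = 0.123), although every tumor lay above both cultures; without tumor 6 it passed (log2 fold change 0.17, adjusted p = 0.0387).

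**Figure D4:**
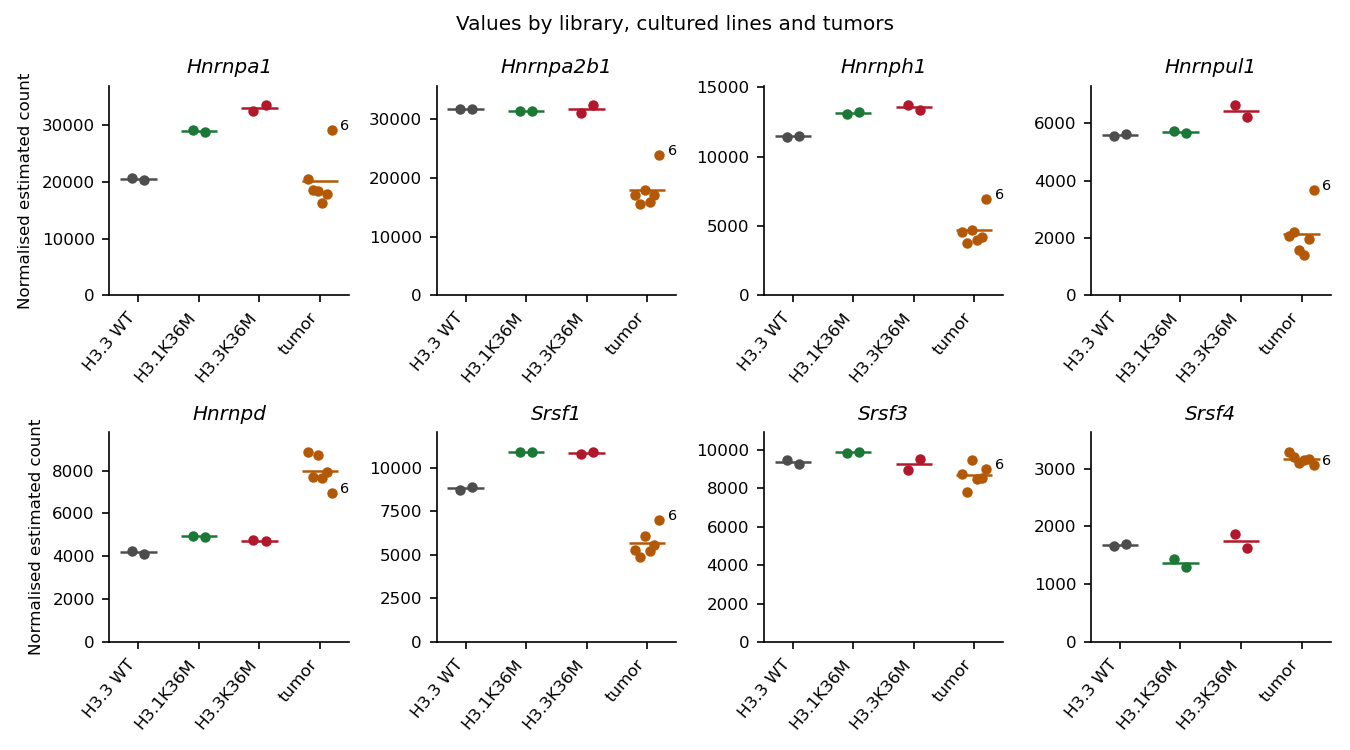
Deposited values of 8 genes in the 12 libraries of the xenograft table; points are libraries, lines are group means, the vertical axes start at 0 and tumor 6 is marked. Tumor 6 is the highest tumor for Hnrnpa1, Hnrnpa2b1, Hnrnph1, Hnrnpul1 and Srsf1 and the lowest for Hnrnpd and Srsf4.

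The classical SR genes were split. Srsf1 fell, from 10818 and 10904 in H3.3K36M cells to 4869 to 7005 (median 5437) in tumors. Srsf4 rose, from 1870.1 and 1633 to 3056 to 3296 (median 3158), and Srsf9 rose from 1733 and 1641 to 2360.3 to 2977 (median 2768). None of these overlapped (Srsf1 -0.95 ± 0.13, adjusted p = 0.000164; Srsf4 0.85 ± 0.083, adjusted p = 1.56e-05; Srsf9 0.69 ± 0.10, adjusted p = 0.000211). Srsf2, at 9330.2 and 9132 against 7502 to 9494 (median 8279), and Srsf3, at 8962 and 9529 against 7783 to 9479 (median 8632), overlapped and did not pass (-0.15 ± 0.10, adjusted p = 0.185, and -0.095 ± 0.093, adjusted p = 0.37). With equal totals both passed as lower, Srsf2 at log2 fold change -0.35, adjusted p = 0.0119 and Srsf3 at log2 fold change -0.29, adjusted p = 0.0404. Srsf5 and Srsf7 did not pass (-0.21 ± 0.12 and -0.088 ± 0.10), and Srsf6 fell (-0.36 ± 0.091, adjusted p = 0.00514), though not without H3.3K36M library 2 (-0.33, adjusted p = 0.0629).

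All 4 other SR-like rows tested fell: Srsf12 as listed (-0.94 ± 0.11, adjusted p = 6.06e-05), Sfrs18 (-0.88 ± 0.18, adjusted p = 0.00153), Srsf10 (-0.85 ± 0.14, adjusted p = 0.000522) and Srsf11 (-0.62 ± 0.15, adjusted p = 0.00429). Hnrnpd, at 4748 and 4711 in H3.3K36M cells and 6942 to 8892 (median 7821) in tumors, rose, and its lowest tumor was well above both cultures (0.75 ± 0.11, adjusted p = 0.00017). Hnrnpc did not pass (-0.038 ± 0.11), and Hnrnpul2 fell (-0.28 ± 0.083, adjusted p = 0.0121), though not without H3.3K36M library 1 (-0.25, adjusted p = 0.113) or H3.3K36M library 2 (-0.31, adjusted p = 0.0623).

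**Figure D5:**
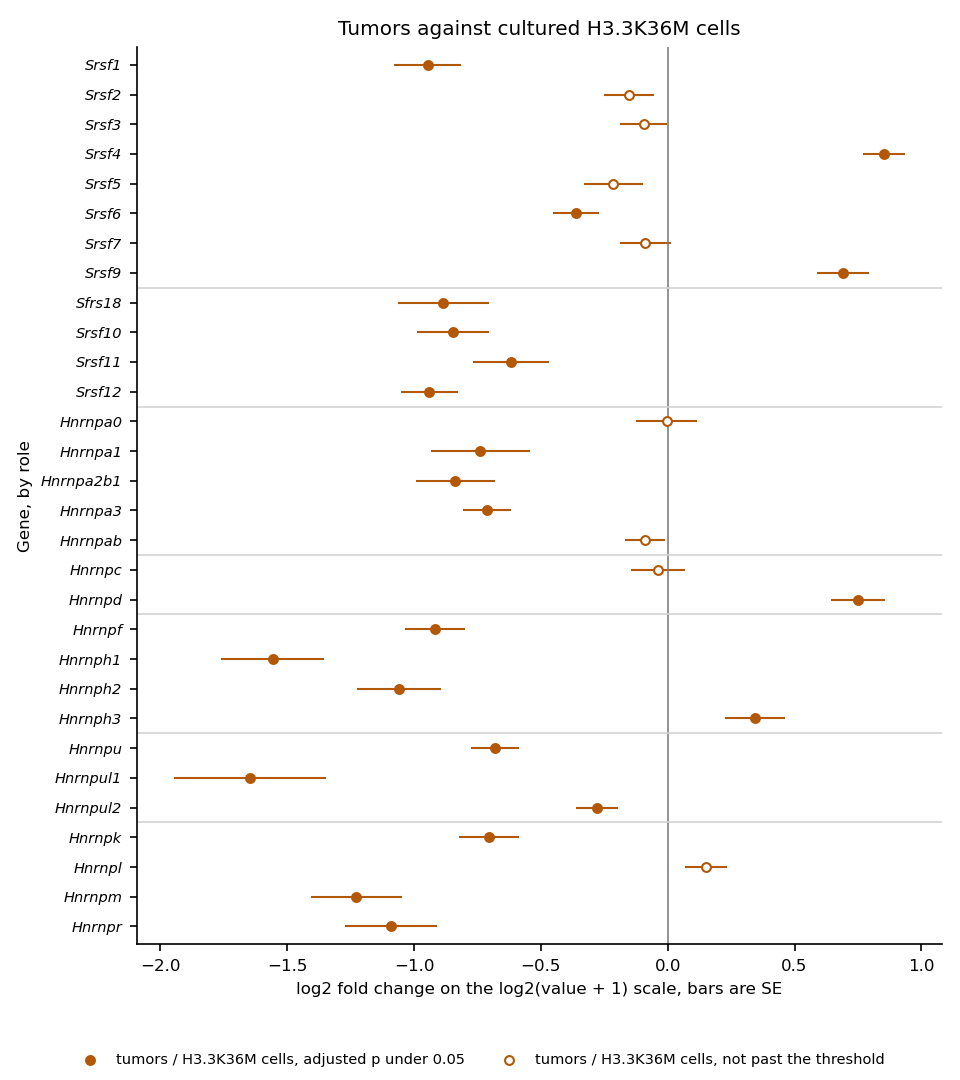
Log2 fold change of each of the 30 genes (rows, by role) in tumors against H3.3K36M cells; bars are SE and open points did not pass the test. Hnrnpul1 and Hnrnph1 lie furthest left, at -1.65 and -1.56, and Srsf4, Hnrnpd and Srsf9 furthest right, at 0.85, 0.75 and 0.69.

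Set beside the wild-type libraries as levels, all 6 tumors were below both for 17 of the 30 genes and above both for 7, where 36% and 44.3% of all genes were so placed. All 6 lay below both H3.3K36M libraries for 19 of the 30 (35.8% of all genes). Hnrnpa1, which rose with H3.3K36M in culture, was at 20562 and 20315 in wild-type cells. Tumors 2 to 5 lay below both (16259.5 to 18478), tumor 1 between them (20457) and tumor 6 above both (29027). The tumors also differed among themselves. Tumor 6 was the highest for 18 of the 30 genes, where this held for 39.5% of all genes, and it had the highest cell cycle sum (72118), the highest mesenchymal sum (204272) and the lowest macrophage sum (214921) of the tumors. It also had the highest endothelial sum (29810.5), skeletal muscle sum (20312, where the lowest tumor had 719) and lymphocyte and NK cell sum (7735), and the lowest keratinocyte sum (165). Without it the counts against H3.3K36M cells were 18 lower and 5 higher.

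The related lists did not move as one in tumors. Of all genes tested 41.0% were called higher and 34.2% lower. Of 44 snRNP and core genes 25 were higher (56.8%) and 8 lower (18.2%). The small proteins Lsm7 (1.51 ± 0.19) and Snrpg (1.41 ± 0.25) rose, and the large proteins Snrnp200 (-1.46 ± 0.14) and Prpf8 (-1.37 ± 0.11) fell. Across all genes in this comparison, fold change also fell with transcript length (rank correlation -0.39). The part of length in these genes was not tested. Of 38 other splicing regulators 5 were higher (13.2%) and 24 lower (63.2%). Celf1 (-3.05 ± 0.34) and Khdrbs3 (-2.98 ± 0.32) were lowest and Celf2 (1.99 ± 0.14) was among the higher ones. The kinase and import list held 3 higher (30%) and 4 lower (40%) of 10. Tnpo1 (-2.55 ± 0.16) and Srpk1 (-0.51 ± 0.11) fell and Clk3 (1.02 ± 0.12) rose. Exon junction and decay genes were 8 higher (53.3%) and 4 lower (26.7%) of 15, with Magoh up (1.12 ± 0.13) and Smg1 down (-2.02 ± 0.23). Of the 4 readers none rose, Psip1 (-2.07 ± 0.22, adjusted p = 2.66e-05) and Zmynd11 (-0.38 ± 0.10) fell, and Ptbp1 (0.030 ± 0.10) and Morf4l1 (-0.14 ± 0.079) did not pass.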

How the data were processed

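RNA was extracted with Trizol and libraries followed the Illumina TruSeq protocol, per the labels. Bowtie 1.0.0, RSEM 1.2.12 and the mm9 build were used, per the submitters' processing notes. The deposited values are a signal, estimated counts divided by a factor per library, which the authors named median normalised. The siRNA table (10 libraries) and the xenograft table (12) were scaled separately and used within themselves; a table of the 4 H3.3 libraries served as an alternative. Since the values are not raw counts, limma 3.58.1 (R 4.3.3) was run on log2(value + 1), with trended and robust eBayes, and p-values were adjusted by Benjamini-Hochberg over all genes tested, which reached 10 in a number of libraries equal to the smallest group. Fold changes on this scale understate low genes. Reads shared with near-identical copies were divided by RSEM, and whether counting used strand is not given in the sources used here. Genes, lists and tests were chosen with earlier results of these data known. Values are given for the 4 called genes with the largest change in each direction per comparison. They are also given for Srsf1, Srsf2, Srsf3, Hnrnpa1, Hnrnpa2b1, Hnrnpk, Hnrnpl and Hnrnpu. Cultured libraries are listed singly and the 6 tumors by range and median. For the interaction, the siRNA libraries of Hnrnpab and Hnrnpul2 and the wild-type and H3.3K36M libraries of Hnrnpd in that fit are not listed. All replicate pairs differed by more than sampling noise (mean chi-square per gene from 1.69). The scripts were tested on simulated data. Promoters are RefSeq's (GRCm38.p6), matched by symbol; 30 of 31 genes matched 1 RefSeq gene.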

Additional observations from a re-analysis of the deposited data

Results flagged for a closer look

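In 8 of the 30 genes, 1 tumor stood apart from the other 5 by Dixon's criterion for a single distant sample. Chance alone marks about 1 gene in 20, the genes share libraries, and the share of all genes so marked was not computed. In 7 of the 8 it was tumor 6, which was the highest: Hnrnpa1 at 29027, Hnrnpa2b1 at 23927, Hnrnpf at 12219, Hnrnph1 at 6974, Hnrnph2 at 2763, Hnrnpr at 3108 and Hnrnpul1 at 3684. The highest values among tumors 1 to 5 were 20457, 17939, 10039.8, 4729, 1968, 2217 and 2195, in that order. Tumor 3 stood apart for Hnrnpab, at 12652. Tumor 6 also differed from each other tumor across the genes compared, with a mean chi-square per gene of 111 to 246. Among tumors 1 to 5 that value was 24.7 to 80.0. The flags of tumor 6 can therefore not be read as particular to the SR and hnRNP genes.

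The mutant and knockdown responses differed in 12 genes by the interaction test (H3.3K36M response minus HMT siRNA response, log2). The mutant response was higher for Hnrnpa1 (0.60), Hnrnpul2 (0.18), Hnrnpab (0.14) and Hnrnph1 (0.13). It was lower for Hnrnpd (-0.27), Srsf5 (-0.26), Hnrnpc (-0.26), Srsf3 (-0.25), Hnrnpu (-0.20), Srsf7 (-0.14), Srsf2 (-0.14) and Hnrnpf (-0.13).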

How the results depend on the processing

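Over all settings of the genes described, 1660 values kept direction and side of the threshold, 143 lost their call, 12 gained one and 23 changed sign. Leaving out 1 library gave 12 to 14 higher and 4 to 5 lower genes with H3.3K36M, 21 to 22 and 3 to 4 with HMT siRNA, 2 to 4 and 5 to 9 for the difference, 12 and 6 to 7 for H3.1K36M against wild type, 4 to 6 and 8 to 9 against H3.3K36M, and 3 to 5 and 15 to 18 in tumors. For the difference, equal totals or plain eBayes gave 5 lower. For H3.1K36M against wild type, 1 fit of all 12 libraries gave 3 higher and 2 lower, and quantile normalisation 13 lower. Against H3.3K36M, the higher genes were 0 (12 libraries), 1 (quantile), 2 (equal totals) and 3 (plain eBayes), and the lower ones 4 (12 libraries) and 17 (quantile, and equal totals). The cause was not tested; the 12-library fit takes its spread from the tumors too. Sign changes under quantile normalisation were, with H3.3K36M, Hnrnpa2b1 -0.091, Hnrnpk -0.042 and Hnrnpu -0.13; for H3.1K36M against wild type, Hnrnpk -0.0009, Hnrnpu -0.082 and Srsf3 -0.019; and against H3.3K36M, Srsf1 -0.12, Srsf2 -0.062 and Srsf3 -0.020. Equal totals turned Srsf1 (-0.077) and Srsf2 (-0.036) against H3.3K36M, and Hnrnpl in tumors (-0.045). The 4-library table turned Hnrnpu (-0.015) and Srsf3 (-0.0052) with H3.3K36M. Ranges that crossed zero when 1 library was left out were, with H3.3K36M, Hnrnpa2b1 -0.0013 to 0.060, Hnrnpu -0.026 to 0.032 and Srsf3 -0.030 to 0.056; Srsf1 -0.0074 to 0.022 for the difference; Hnrnpl -0.081 to 0.0052 for H3.1K36M against wild type; and Hnrnpa2b1 -0.047 to 0.015 against H3.3K36M. The replicate numbers are not shown to pair libraries: deviations of same-numbered siRNA libraries correlated by 0.02, 0.32 and 0.17, and control library 1 correlated best with HMT library 3 (0.19). With the replicate block the higher and lower genes were 15 and 5 with H3.3K36M, 24 and 3 with HMT siRNA, 4 and 10 for the difference, 13 and 9, and 7 and 9, for H3.1K36M, and 4 and 21 in tumors.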
